A study of Mus musculus with 16 samples.

Results

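The genes described here are 38 symbols of the hypoxia response and of glycolysis, chosen by name: glucose and lactate transporters, the enzymes of glycolysis, regulators of the pathway, target genes of hypoxia-inducible factor (HIF), and the HIF system itself. Of the 38 symbols, 35 had an entry among the 17715 entries of the deposited table. Pfkp, Aldoc and Pkm2 (an older symbol of the gene entered as Pkm) were not analysed here. Their levels were measured by RNA sequencing in endothelial cells, the cells that line blood vessels, sorted from the lungs of female C57BL/6N mice. Per the labels, the tumours came from Lewis lung carcinoma, a transplantable line of mouse lung cancer that can metastasise to the lung, implanted under the skin. The 4 groups were wild-type mice without a tumour (d0), mice with a primary tumour (d15), mice whose tumour had been resected (d22) and mice with metastases (d36). Each group had 4 libraries from what the submitters describe as independent replicates. The mice had no genetic change named in the labels, and the sources used here do not give their age, the sort gate or the antibodies. By their labels, the d0 replicates are 1 to 4, those of d15 are 3 to 6, the d22 ones are 1, 4, 5 and 6, and d36 has 1, 7, 8 and 9; values are given in this order. The title of d36 replicate 1 names day 29, while its time point field, followed here, reads d36.

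HIF is a pair of proteins: an alpha subunit, Hif1a or Epas1 (also called HIF-2 alpha), and the shared beta subunit Arnt. In oxygen, prolyl hydroxylases (Egln1, Egln3) mark the alpha subunit, and the ubiquitin ligase component Vhl sends it to degradation, so that the protein level is set largely after the mRNA is made. In low oxygen HIF binds a short DNA core in its target genes and raises glucose uptake, glycolysis and lactate export. Lung endothelium is known for high Epas1, and endothelial cells in general make most of their ATP by glycolysis.

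Levels are RPKM, reads per kilobase of transcript per megaread, as the authors deposited them. Differences between groups are in log2 units after adding a pseudocount of 1 RPKM, written log2(RPKM + 1), so that changes of genes around or below 1 RPKM come out too small. They come from 1 limma fit over 16 libraries with p-values adjusted over 14303 entries (Benjamini-Hochberg), and a gene was called at an adjusted p under 0.05. Of the 35 members, 31 had at least 1 RPKM in at least 4 libraries and were tested. Of these, 29 reached that level without any d36 library, and Slc16a3 and Gapdh reached it with the help of d36 libraries. Hk2, Pfkfb4, Car9 and Egln3 were not tested. Approximate depth, read from the steps between low RPKM values, was 93.4 to 152.1 M (mega) reads per library. Its absolute scale rests on 29 of 60 genes with 1 annotated transcript that lay within 2% of the most common value. The cells carried the endothelial label: 12 of 12 endothelial markers were tested, with a mean of 8.23 to 8.37 at d0 and of 7.94 to 8.26 at d36 on the log2(RPKM + 1) scale. Libraries were less alike at d36 (r across genes from 0.920) than in the other groups (from 0.978), and d36 replicate 9 stood apart from the other 3 in many of the members.

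Most members with a promoter window had a sequence feature that was not read in choosing them. Known HIF targets were among the names chosen and HIF binds this core in its targets, so the share is not independent of the choice. RefSeq promoter windows (build GRCm38.p6) were matched for 32 of the 35 members, and Bnip3l, Ndrg1 and Epas1 had none in the table. The 250 bases before each annotated start were searched for the core of the hypoxia response element, ACGTG or GCGTG, on both strands (CACGT and CACGC on the reverse strand). A run of CACGTG holds the first core on both strands and counts 2 times. A core was found upstream of at least 1 start of 29 of the 32 members (90.6%), against 62.3% of 7466 tested entries with a window and 41.5% of all 27025 symbols with one. By window the shares were 77.1% of 48 member windows, 56.3% of the windows of tested entries and 38.6% of all 32851 windows. Member windows were also richer in G and C (median 62.4%, against 59.6% and 52.4%), and a G- and C-rich window holds such a core more often by its composition alone. Within the members, 14 of 15 that were higher at d36 than at d0 had a core, and so did 11 of 13 of the other tested members. These are matches of letters, given without a test.

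Sequences of 6 members are shown, 5′ to 3′ and ending at the base before the start, because the results below turn on these genes. Capitals mark the cores. Ldha and Bnip3 held the most in 1 member window (5 each), Slc2a1 and Hk2 held 2 each and Hif1a 3, whereas Tpi1 held none in this window.
Slc2a1, chr4:119108495-119108744, plus strand: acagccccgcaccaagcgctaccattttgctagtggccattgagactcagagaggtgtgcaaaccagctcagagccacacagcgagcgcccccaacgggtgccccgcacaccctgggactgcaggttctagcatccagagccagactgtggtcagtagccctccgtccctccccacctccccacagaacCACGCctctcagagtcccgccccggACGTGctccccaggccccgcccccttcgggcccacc
Hk2, chr6:82774455-82774704, minus strand: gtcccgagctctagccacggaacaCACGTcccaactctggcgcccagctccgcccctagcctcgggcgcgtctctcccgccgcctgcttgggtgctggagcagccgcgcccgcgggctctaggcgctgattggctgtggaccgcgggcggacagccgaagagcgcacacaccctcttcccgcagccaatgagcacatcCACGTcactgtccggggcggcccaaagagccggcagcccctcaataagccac
Ldha, chr7:46845554-46845803, plus strand: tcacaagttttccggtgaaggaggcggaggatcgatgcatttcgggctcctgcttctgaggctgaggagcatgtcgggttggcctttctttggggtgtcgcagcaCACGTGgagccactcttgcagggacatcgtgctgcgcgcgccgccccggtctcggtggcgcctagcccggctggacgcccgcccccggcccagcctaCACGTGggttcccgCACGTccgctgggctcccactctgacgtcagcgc
Tpi1, chr6:124814159-124814408, minus strand: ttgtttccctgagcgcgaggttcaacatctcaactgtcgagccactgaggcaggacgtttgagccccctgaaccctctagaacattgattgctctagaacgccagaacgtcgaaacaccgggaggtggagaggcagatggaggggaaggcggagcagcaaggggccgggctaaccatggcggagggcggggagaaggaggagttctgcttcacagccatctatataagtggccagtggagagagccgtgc
Bnip3, chr7:138909507-138909756, minus strand: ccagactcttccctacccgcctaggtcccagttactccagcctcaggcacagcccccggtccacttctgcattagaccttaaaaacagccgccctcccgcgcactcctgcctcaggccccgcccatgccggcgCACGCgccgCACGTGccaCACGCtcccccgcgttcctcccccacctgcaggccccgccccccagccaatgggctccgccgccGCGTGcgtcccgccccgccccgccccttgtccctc
Hif1a, chr12:73907617-73907866, plus strand: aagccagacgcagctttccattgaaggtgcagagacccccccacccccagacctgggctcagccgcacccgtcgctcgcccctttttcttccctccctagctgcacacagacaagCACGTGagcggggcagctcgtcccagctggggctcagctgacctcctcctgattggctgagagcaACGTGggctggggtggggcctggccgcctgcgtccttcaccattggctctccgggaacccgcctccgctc
In Ldha, 4 of the 5 matches came from a pair of CACGTG runs, which begin 145 and 48 bases before the start, and a window further downstream, at another annotated start, held 1 core. In Bnip3 the first match begins 117 bases and the last 35 bases before the start.

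In lung endothelial libraries from mice with metastases, the glucose transporter Slc2a1, several enzymes of glycolysis (Ldha and Pkm among them), hypoxia targets such as Bnip3 and Ankrd37, and Hif1a were higher. At d36, 16 of the 31 tested members were higher than at d0 and 0 were lower by limma, against 16.6% higher and 7.37% lower of all 14303 entries. These were 2 of 2 transporters, 6 of 12 tested enzymes, 1 of 2 regulators, 6 of 10 hypoxia targets and 1 of 5 genes of the HIF system. Slc16a3, 1 of the 2 transporters, was among the tested genes only through its d36 libraries, so its call is no support for the counts. The median difference of the tested members was 0.54, against 0.04 over all entries. In 10 tested members every d36 library was above every d0 library and in 0 every one was below, against 13.9% and 7.47% of all entries. In sorted bulk RNA, a changed share of a cell type and a changed level per cell cannot be told apart. With the 4 untested genes included and no filter on low values, 19 of 35 were higher and 0 lower, with a median of 0.74 against 0.05 and a background of 17.7% higher and 6.36% lower. Under quantile normalization the split of all calls turned, from 2376 higher and 1054 lower to 1624 higher and 2275 lower (11.4% and 15.9%), while 15 members were still higher and 0 lower. In the plot of all members by library, the darkest block covers 3 of the 4 d36 libraries.

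**Figure D1:**
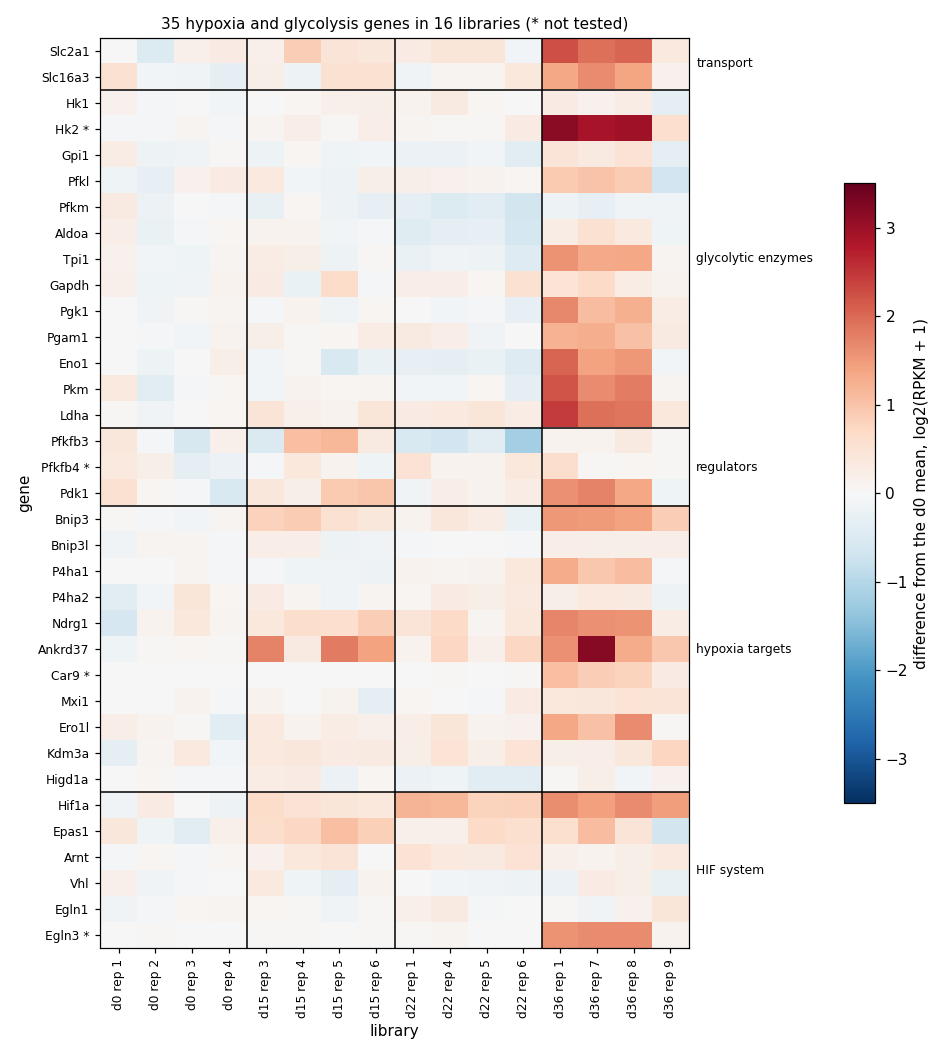
Each row is a member, ordered by role, and each column a library; colour gives the difference from the d0 mean on the log2(RPKM + 1) scale, and an asterisk marks the 4 genes that were not tested. Most of the red cells of the transporters and enzymes lie in d36 replicates 1, 7 and 8, whereas Hif1a is red in all 4 d36 libraries and lighter red at d15 and d22.

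Slc2a1 encodes GLUT1, the main glucose transporter of endothelial cells. It stood at 7.52, 5.15, 8.66 and 9.51 RPKM at d0 and at 39.8, 31.3, 34 and 9.77 RPKM at d36. Replicates 1, 7 and 8 of d36 were far above every other library, and replicate 9 lay just above the highest d0 library. The difference was 1.64 ± 0.31 (SE, limma adjusted p = 0.00154). The libraries of d15 and d22, with means of 11.1 ± 2.5 and 9.29 ± 1.62 RPKM (SD, n = 4), overlapped d0 and did not pass against it. Slc16a3, the lactate exporter MCT4, was near the limit of the filter at d0 (0.148 to 1.08 RPKM). At d36 it read 2.69, 3.54, 2.71 and 0.604 RPKM, so that replicates 1, 7 and 8 were above, and replicate 9 within, the d0 range (difference 1.14 ± 0.27, limma adjusted p = 0.00599). It reached 1 RPKM in 3 libraries outside d36, and so entered the test through the group where it was high. In the fit without a filter, which does not select it, the limma adjusted p was 0.00733.

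The first step of glycolysis is made by hexokinases. Hk1, the common form, held 1.3 to 2.57 RPKM over the 16 libraries and did not pass in any comparison. Hk2, the inducible form, was almost unread outside d36, at 0, 0.0114, 0.108 and 0.0117 RPKM at d0, 0.0579 to 0.208 at d15 and 0.0565 to 0.253 at d22. At d36 it stood at 8.14, 6.66, 7.06 and 0.565 RPKM. Even the lowest d36 library was thus above the other 12, but 3 libraries at 1 RPKM or more were too few for the filter. In the fit without a filter (17645 entries) the difference between d36 and d0 was 2.40 ± 0.38, with a limma adjusted p of 0.00063.

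The enzymes are given in the order of their steps. Hk1, Gpi1, Pfkl, Pfkm and Aldoa were not called at d36 against d0 by limma with all 4 d36 libraries, although for all of these but Pfkm replicates 1, 7 and 8 were above every d0 library. Gpi1, which makes fructose 6-phosphate, was at 65.5 ± 9.42 RPKM at d0 and 78.5 ± 18.6 at d36 (SD, n = 4). Of the phosphofructokinase subunits, Pfkl had 53.7, 57.3, 53 and 17.2 RPKM at d36 against 22.8 to 34.3 at d0, so that 3 libraries were above and 1 below all of d0 (difference 0.54 ± 0.27, limma adjusted p = 0.163). Pfkm, the muscle-type subunit, was the 1 member that fell at d22: it had 23.7, 16.2, 18.7 and 17.9 RPKM at d0 and 14.8, 13.3, 14.4 and 11.7 at d22. Every d22 library was below every d0 library (difference -0.46 ± 0.12, limma adjusted p = 0.0165). The call held in 6 of 8 fits with a library left out (limma adjusted p up to 0.0598, without d22 replicate 6, and also lost without d0 replicate 1). It was also lost with the length and GC trend removed (limma adjusted p = 0.0685). Aldoa, the aldolase, was the enzyme with the highest level, 553 ± 74.8 RPKM at d0. Its d22 level of 415 ± 39.9 missed the threshold against d0 (limma adjusted p = 0.0679), and d36, at 657 ± 125, was higher than d22 (0.65 ± 0.15, limma adjusted p = 0.00961).

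The 6 enzymes that were called at d36 against d0 were Tpi1, Pgk1, Pgam1, Eno1, Pkm and Ldha. Tpi1, which interconverts the triose phosphates, read 38.8, 32.9, 31.2 and 37.5 RPKM at d0 and 105, 89.2, 91 and 37.4 at d36 (difference 1.08 ± 0.23, limma adjusted p = 0.00302). Pkm, pyruvate kinase, read 183, 109, 140 and 149 RPKM at d0 and 655, 456, 495 and 152 at d36 (1.43 ± 0.30, limma adjusted p = 0.00331). In both genes replicates 1, 7 and 8 were above all the other libraries, and replicate 9 was inside the d0 range. Ldha, the lactate dehydrogenase subunit that favours lactate, was even at d0 (31.7, 28.6, 31.3 and 32.5 RPKM) and stood at 172, 120, 116 and 40 RPKM at d36. Here all 4 d36 libraries were above all d0 libraries, and the difference was the largest among the tested enzymes, 1.65 ± 0.28 (limma adjusted p = 0.000761). Eno1, enolase, was at 128, 82.5, 89.3 and 28.9 RPKM at d36 against 26.9 to 35.6 at d0 (1.21 ± 0.29, limma adjusted p = 0.00752), a call lost with only the 2 groups compared (limma adjusted p = 0.055).

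Pgk1 and Pgam1, a kinase and a mutase of the same stretch, were entered at low levels and rose too. Pgk1 went from 3.63 ± 0.316 RPKM at d0 to 9.23 ± 3.79 at d36 and Pgam1 from 2.54 ± 0.245 to 6.09 ± 1.88 (SD, n = 4), with no overlap between the groups. Gapdh was entered at 0.382 to 1.57 RPKM in all libraries, far below its neighbours in the pathway, and did not pass (0.38 ± 0.17, limma adjusted p = 0.123). Its transcript had near-identical stretches (at least 95% identity over 200 bases) in 77 other annotated genes, 75 of them pseudogenes. Pgk1 and Ldha had such stretches in 4 other genes, Eno1 in 3 (Eno1b among them), Pkm in 2 and Tpi1, Pgam1 and Gpi1 in 1. Outside glycolysis, Bnip3 had them in 3 and Bnip3l and Higd1a in 1. The sources used here do not say how reads that match several genes were counted, so the levels of these genes are uncertain.

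**Figure D2:**
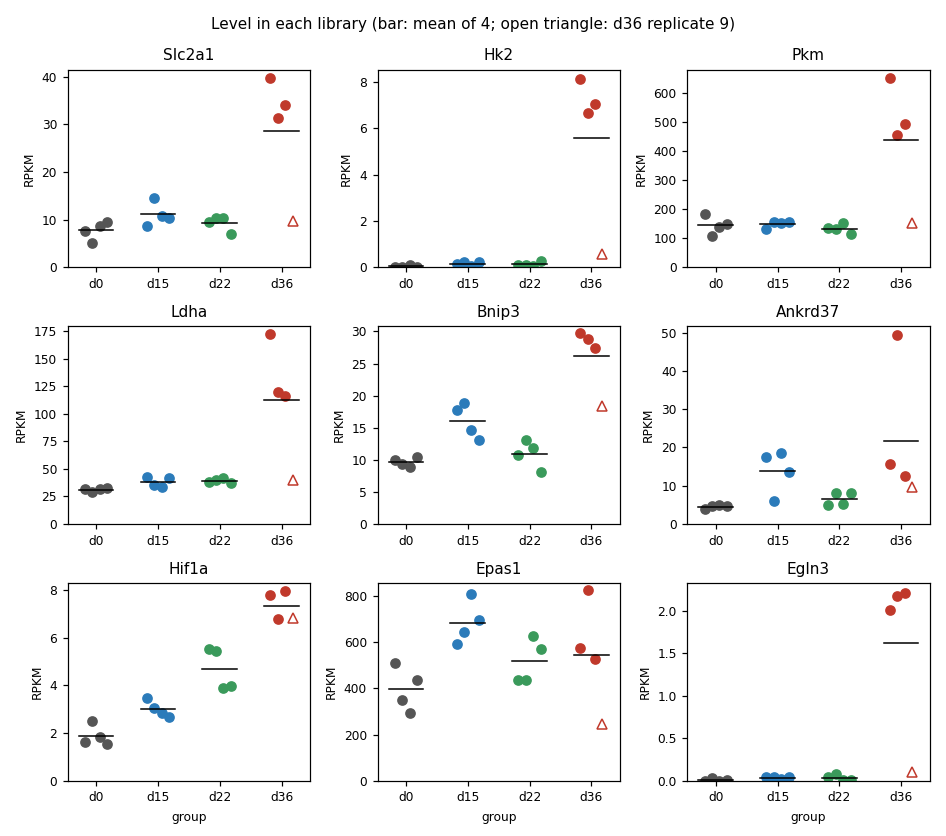
RPKM of 9 members in every library by group, with the mean of 4 libraries as a bar and d36 replicate 9 as an open triangle; all axes start at 0. For Slc2a1, Hk2, Pkm, Ldha and Egln3 the triangle lies near the other groups, for Hif1a it lies with the other d36 libraries (6.84 RPKM, against 6.79 to 7.97), and for Bnip3 it lies between (18.4 RPKM).

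Among the regulators, Pdk1, the kinase that turns off pyruvate dehydrogenase, read 6.58, 7.44, 5.4 and 1.25 RPKM at d36 against 0.753 to 2.61 at d0. Its call (1.13 ± 0.33, limma adjusted p = 0.0188) passed in 4 of the 8 fits that left out a d0 or d36 library (limma adjusted p up to 0.0663, without d0 replicate 4). It was lost with only the 2 groups compared (limma adjusted p = 0.0807) and with the length and GC trend removed (limma adjusted p = 0.057). Pfkfb3, which makes the allosteric activator of phosphofructokinase and is known to drive glycolysis in sprouting vessels, followed another course. It had 9.35, 29.3, 31.7 and 17.4 RPKM at d15 and 9.22, 8.27, 10.2 and 5.42 at d22, and the groups overlapped only through d15 replicate 3. The fall from d15 to d22 passed (-1.20 ± 0.29, limma adjusted p = 0.0357), but in only 1 of 8 fits with a library left out, with adjusted p-values up to 0.121 (without d15 replicate 4). At d36 Pfkfb3 stood at 14.2 to 17.4 RPKM, within its d0 range of 9.05 to 18.4. Pfkfb4, its relative, stayed between 0.175 and 1.31 RPKM and was not tested.

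Hypoxia targets outside glycolysis rose at d36 in 6 of 10 tested cases, against 16.6% of all entries higher than at d0. Bnip3, a mitochondrial protein of mitophagy, was even at d0 (9.99, 9.41, 8.94 and 10.5 RPKM). The d15 values were 17.8, 18.8, 14.6 and 13.1 RPKM, those of d22 10.7, 13.1, 11.9 and 8.16, and those of d36 29.7, 28.9, 27.4 and 18.4. Its d15 and d36 libraries were all above d0, its d22 libraries overlapped d0, and the d36 difference was 1.32 ± 0.16 (limma adjusted p = 6.6e-05). The d15 difference, 0.66 ± 0.16, was just outside the threshold (limma adjusted p = 0.0547).

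Ankrd37, a small ankyrin repeat protein and a known HIF target, had a like course with a wider spread. The d0 values were 3.95, 4.65, 4.81 and 4.67 RPKM, followed by 17.4, 5.9, 18.6 and 13.5 for d15. The d22 values were 5.02, 8.08, 5.22 and 8.09 RPKM, and those of d36 were 15.6, 49.4, 12.6 and 9.69. All libraries of the later groups were above all d0 libraries, and d36 replicate 7 was the highest. The difference passed at d36 (1.76 ± 0.38, limma adjusted p = 0.00373) and not at d15 (1.32 ± 0.38, limma adjusted p = 0.0923). Ndrg1, a stress-response gene, had 20.2, 18.9, 18.5 and 6.77 RPKM at d36 against 3.35 to 7.48 at d0 (1.29 ± 0.27, limma adjusted p = 0.00276). Its d15 libraries, at 7.49 to 10.8 RPKM, were also above all of d0, without passing (0.62 ± 0.27, limma adjusted p = 0.254).

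A pair of genes of protein maturation rose at d36. P4ha1, the catalytic subunit of collagen prolyl 4-hydroxylase, read 34, 26, 28.9 and 12.4 RPKM at d36 against 12.4 to 14 at d0 (0.81 ± 0.20, limma adjusted p = 0.00872). Ero1l, an oxidase of the endoplasmic reticulum, read 11.9, 9.36, 14.9 and 4.18 RPKM against 2.84 to 4.98 (1.02 ± 0.24, limma adjusted p = 0.0067). Replicate 9 was within the d0 range for Ero1l and just below it for P4ha1. With only the 2 groups compared, the limma adjusted p was 0.0605 for P4ha1 and 0.0545 for Ero1l, so both calls were lost. P4ha2, the sister of P4ha1, had 5.12 to 9.76 RPKM in all 16 libraries and did not pass in any comparison. Car9, carbonic anhydrase 9 and a classic hypoxia marker, was listed at 0 in 3 of 4 d0 libraries and in all d15 libraries, and reached 1.07, 0.824, 0.727 and 0.217 RPKM at d36. It was not tested, and in the fit without a filter the d36 difference was 0.74 ± 0.11 (limma adjusted p = 0.000403).

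Mxi1, an antagonist of MYC, had the smallest of the 16 called differences. Its level was 1.56, 1.61, 1.81 and 1.72 RPKM at d36 against 0.891 to 1.18 at d0 (0.42 ± 0.12, limma adjusted p = 0.0152). Replicate 9 lay with the other d36 libraries here. The call was lost under quantile normalization (limma adjusted p = 0.0561) and with the length and GC trend removed (limma adjusted p = 0.344). Kdm3a, a histone demethylase, was highest in replicate 9 (21.3 RPKM, against 14.4 to 16.6 in the other 3 and a mean of 12.5 ± 2.63 at d0, SD, n = 4) and missed the threshold (0.40 ± 0.14, limma adjusted p = 0.0502). Bnip3l, the relative of Bnip3, was at 28.7 to 29.4 RPKM at d36 against 22.9 to 26.5 at d0, which also missed it (0.21 ± 0.10, limma adjusted p = 0.144). Higd1a, a small mitochondrial protein, read 16.5 to 27.2 RPKM in all libraries and passed in no comparison.

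The HIF subunits differed in course. Hif1a had the lowest p-value of the members at d36 against d0, and was the 1 member that rose at both d22 and d36. The d0 libraries read 1.64, 2.51, 1.85 and 1.54 RPKM, and the d15 libraries 3.48, 3.05, 2.84 and 2.68. The d22 libraries read 5.52, 5.44, 3.88 and 3.98 RPKM, and the d36 libraries 7.8, 6.79, 7.97 and 6.84. No library of one group overlapped those of another, and replicate 9 of d36 was with its group. Against d0 the difference was 0.48 ± 0.13 at d15 (limma adjusted p = 0.0777), 0.98 ± 0.13 at d22 (limma adjusted p = 0.000385) and 1.54 ± 0.13 at d36 (limma adjusted p = 3.88e-06). The step from d22 to d36 also passed (0.56 ± 0.13, limma adjusted p = 0.0113). The step from d15 to d22 passed narrowly (0.50 ± 0.13, limma adjusted p = 0.0469) and in only 1 of 8 fits with a library left out, with adjusted p-values up to 0.138 (without d22 replicate 1). These are mRNA levels, which do not measure the HIF protein.

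Epas1, the other alpha subunit, was far higher per length than Hif1a in every group. Its d0 values were 508, 350, 294 and 437 RPKM and its d15 values 591, 645, 807 and 697. The d22 values were 438, 437, 625 and 571 RPKM, and those of d36 were 573, 826, 527 and 247. All d15 libraries were above all d0 libraries, and d36 replicate 9 was the lowest of the 16. The d15 difference did not pass (0.81 ± 0.27, limma adjusted p = 0.15), nor did d22 or d36. Arnt, the beta subunit, was at 2.03, 2.31, 2.02 and 2.31 RPKM at d0 and 3.53, 3, 2.92 and 3.5 at d22, with no overlap (0.42 ± 0.11, limma adjusted p = 0.0179). This call held in 4 of 8 fits with a library left out (limma adjusted p up to 0.059, without d22 replicate 6) and was lost with the length and GC trend removed (limma adjusted p = 0.0948).

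Of the genes that turn HIF off, Vhl (3.87 to 6.68 RPKM) and Egln1 (3.97 to 6.35 RPKM) passed in no comparison. Egln3, a prolyl hydroxylase that is itself a HIF target, was at 0, 0.0332, 0 and 0.00971 RPKM at d0 and at most 0.0814 RPKM in the d15 and d22 libraries. At d36 it read 2.01, 2.17, 2.21 and 0.108 RPKM. It thus resembled Hk2 and Car9: near 0 in 12 libraries, present in 3 d36 libraries and low, but above all others, in replicate 9. It was not tested, and the fit without a filter gave 1.26 ± 0.24 (limma adjusted p = 0.00179).

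Leaving out d36 replicate 9 raised the number of members called against d0 from 16 to 20, with a background of 21.8% higher and 13.3% lower, and all 16 stayed called. The added genes were Gpi1 (0.42, limma adjusted p = 0.0106), Pfkl (0.94, limma adjusted p = 0.000104), Aldoa (0.37, limma adjusted p = 0.0399) and Epas1 (0.69, limma adjusted p = 0.0137). In 24 tested members replicates 1, 7 and 8 were all above all d0 libraries. In 20 of these replicate 9 was below the other 3, and it was above all of d0 in 10, within the d0 range in 9 and below it in 5. Over all entries, 3447 (24.1%) had replicates 1, 7 and 8 above all of d0, and in 42.2% of those replicate 9 was not above all of d0. The members' mean on the log2(RPKM + 1) scale was 4.50, 4.49, 4.43 and 3.71 in the 4 d36 libraries, against 3.49 to 3.61 at d0. Leaving out d36 replicate 1, whose title names day 29, gave 16 calls, and the share of all entries in that fit is not given here.

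**Figure D3:**
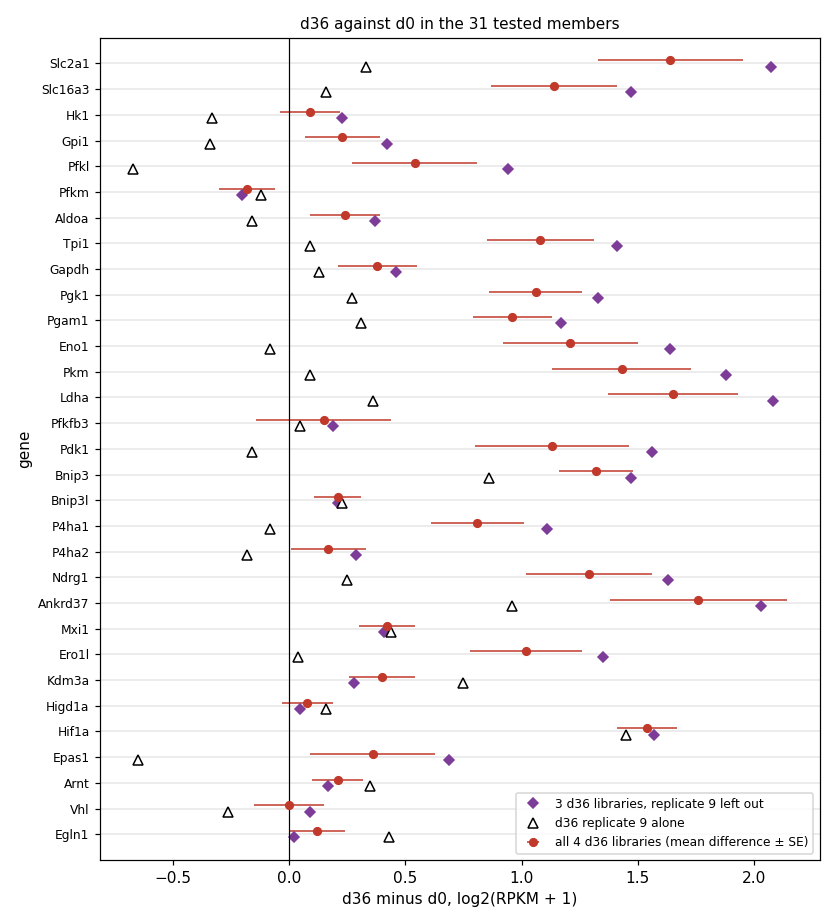
Differences between d36 and d0 for the 31 tested members on the log2(RPKM + 1) scale: circles are the fit with 4 d36 libraries with its standard error, diamonds the fit without d36 replicate 9, and open triangles that library alone against the d0 mean. For Ldha the 3 values are 1.65, 2.08 and 0.36, and for Hif1a they are 1.54, 1.57 and 1.45.

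Some markers of other cells moved with the same libraries: tumour line, proliferation and fibroblast markers were far lower in d36 replicate 9 than in replicates 1, 7 and 8. Others did not. The erythroid sum was 2.63, 5.41, 2.55 and 12.4 RPKM in the d36 libraries, and the neutrophil sum 2.57, 44.2, 25.3 and 0.981 RPKM. The leukocyte sum was 46.3 RPKM in replicate 1 and 44.6 in replicate 9. Of 7 tumour line markers, 4 were in the table and 1 was tested. Their summed level was 0.0753 to 0.209 RPKM in d0 libraries, 0.0145 to 0.446 in d15 and 0.0341 to 0.816 in d22 libraries. It was 165, 107, 108 and 12 RPKM in the d36 libraries. Rhox5, a homeobox gene and the tested marker, gave most of it, with 148, 97.8, 91.6 and 11.1 RPKM at d36 (5.85 ± 0.51, limma adjusted p = 4.44e-06). Rhox5 entered the test only through its d36 libraries, so its call is no support. Hmga2, an embryonic chromatin protein, was listed at 0 in all d0 libraries and read 8.48, 6.83, 7.96 and 0.268 RPKM at d36. Replicate 9 was thus the lowest d36 library in these markers, as it was in Hk2, Egln3, Ldha and Slc2a1, whereas it was not the lowest in Hif1a, Mxi1 or Kdm3a. The keratins Krt8 (57.6, 44.7, 29.2 and 2.55 RPKM at d36, at most 1.15 at d0) and Krt18 (90.1, 71.2, 46.1 and 5.66, at most 2.69) were also lowest there, while Epcam, an epithelial marker, stayed at 0.174 RPKM or less in all libraries. In the lung epithelium list, which holds both keratins, 2 of 9 tested genes were higher and 1 lower at d36 than at d0. The shares of all entries were 16.6% and 7.37%. Only 3 of the 9 differences were positive, with a median of -0.18, and the mean of Sftpc went from 423 to 291 RPKM.

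Proliferation genes rose at d36 in 7 of 7 tested cases. Of all entries 16.6% were higher and 7.37% lower, for this list and those that follow. The summed level over 10 proliferation genes was 126, 76.4, 85.7 and 10.9 RPKM at d36. It was 2.09 to 3.13 at d0, 2.44 to 3.54 at d15 and 3.27 to 17.6 at d22. Leukocyte markers rose in 5 of 6 tested cases (44.6 to 124 RPKM against 32.3 to 39.3) and macrophage markers in 3 of 4 (52.7 to 145 against 25 to 44, with 46.7 to 133 at d15). The sums of both lists were highest in replicate 8, not in replicate 1, and most of the macrophage sum was Lyz2 (43.8 to 106 RPKM at d36). By gene, C1qa, C1qb, C1qc and Marco were highest in replicate 7 (3.53, 12.9, 3.24 and 8.13 RPKM). Lyz2, Cd68, Csf1r and Emr1 were highest in replicate 8. Of the fibroblast markers 1 of 2 rose (28.8 to 39.7 RPKM in replicates 1, 7 and 8 and 2.1 in replicate 9, against 1.7 to 2.29 at d0). Without d36 libraries, the filter was reached only by Cdk1 and Mcm2 (proliferation), Lcp1 (leukocyte), and Lyz2 and Cd68 (macrophage). The other tested genes of these lists, with both fibroblast markers, entered only with the help of d36 libraries. The counts of these lists are thus no support for a rise. Endothelial markers were called higher in 1 and lower in 3 of 12 cases, and their mean on the log2(RPKM + 1) scale was 8.01, 7.94, 8.12 and 8.26 in the d36 libraries. Replicates 1, 7 and 8 were the 3 lowest of the 16 libraries in that mean, the others lying between 8.18 and 8.37. Immediate-early genes, which respond to handling of cells among other signals, rose in 8 of 10 cases, with a mean of 6.89, 8.39, 6.82 and 5.67 against 4.78 to 5.28 on the log2(RPKM + 1) scale. The part of these cells and signals in the rise of the members was not tested.

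**Figure D4:**
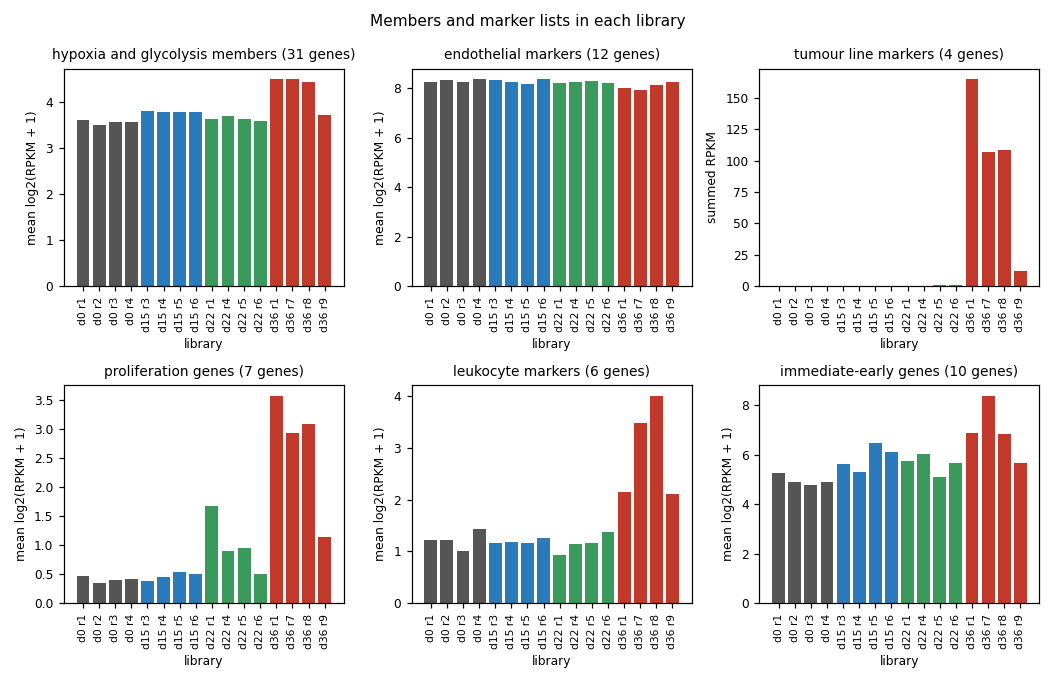
Each bar is a library; heights are the mean log2(RPKM + 1) of the tested genes of a list or, for the tumour line markers, the summed RPKM of 4 genes. Tumour line, proliferation and member bars are higher in d36 replicates 1, 7 and 8 than in replicate 9, whereas the endothelial bars are lowest in replicates 1, 7 and 8 (7.94 to 8.12, against 8.18 to 8.37 in the other libraries).

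Before the metastatic stage few members were called. At d15, 0 of 31 members were called in either direction by limma, against 0.608% higher and 0.573% lower of all entries, and 7 had an unadjusted p under 0.05. The alternative settings gave 0 to 4 higher members. Every d15 library was above every d0 library in 6 members and below in 0, against 5.34% and 6.94% of all entries, and the median difference was 0.11 against -0.02. The members' mean on the log2(RPKM + 1) scale was 3.78 to 3.80 in the d15 libraries, against 3.49 to 3.61 at d0, given without a test. Some marker lists also lay above d0 in every d15 library. By sum these were the erythroid (4.26 to 19.3 RPKM, against 0.655 to 1.73) and macrophage markers (46.7 to 133, against 25 to 44). By mean on the log2(RPKM + 1) scale they included lung epithelium (4.76 to 5.51, against 4.06 to 4.72) and immediate-early genes (5.32 to 6.48, against 4.78 to 5.28). The macrophage mean and the sums of lung epithelium and immediate-early genes overlapped d0. Most of the macrophage sum was Lyz2 (44.9 to 131 RPKM at d15, against 24 to 40.9 at d0). Cd68 (1.76 to 3.08 RPKM, against 0.942 to 2.48) overlapped d0. C1qb and Marco were at most 0.151 and 0.0977 RPKM at d15, against at most 0.234 and 0.275 at d0. The part of these marker lists in the members' values was not tested. In the authors' deposited table, 6 members were higher at d15 with an adjusted p under 0.05 and 0 were lower, against 5.07% and 2.82% of entries with a p-value there. They were Slc2a1, Bnip3, Ndrg1, Ankrd37, Hif1a and Epas1, with log2 fold changes in the authors' deposited table of 0.55 to 1.58. The comparison group of that table is not named, but its fold changes follow the ratio of mean RPKM to d0 across genes (r = 0.996 at d15). Genes are not independent replicates.

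At d22, after resection, 2 members were higher than at d0 (Hif1a and Arnt) and 1 was lower (Pfkm), against 8.09% and 7.1% of all entries. Every d22 library was above every d0 library in 4 members and below in 4, against 14.2% and 12.3%. From d15 to d22, 1 was higher (Hif1a) and 1 lower (Pfkfb3), against 2.0% and 1.06%, a split of all calls that median-ratio scaling turned from 286 higher and 151 lower to 230 and 278. The authors' deposited table had 4 members higher (Ldha, Ankrd37, Hif1a and Arnt) and 3 lower (Pfkm, Aldoa and Pfkfb3) at d22, against 16.5% and 9.18% of its entries. At d36 it had 18 higher and 0 lower, against 16.9% and 5.36%. These are the 16 members called here with Hk2 and Car9 added.

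The d36 libraries were also set against d22 and d15. From d22 to d36, 15 members were higher and 0 lower, against 8.73% and 3.07% of all entries, and from d15 to d36 the numbers were 13 and 0, against 9.87% and 1.64%. Quantile normalization moved the split of all calls from 1249 higher and 439 lower to 872 and 1090 for d36 against d22, and from 1411 and 234 to 743 and 714 for d36 against d15. The 3 comparisons share the d36 libraries and those against d0 share the d0 libraries, so they are not independent. From d15 to d36 the difference was 1.36 ± 0.28 for Ldha (limma adjusted p = 0.0058) and 1.38 ± 0.30 for Pkm (limma adjusted p = 0.00848). For Bnip3, whose d15 libraries were all above d0, it was 0.66 ± 0.16 (limma adjusted p = 0.0143), and Ankrd37 and Ndrg1 were not called. In fits of only the 2 groups compared, 4 members were called from d22 to d36 and 1 from d15 to d36. The shares of all entries in these smaller fits are not given here, so the drop is not read as a result about the members.

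Other genes of the pathway were taken from lists of further HIF targets, HIF system genes and neighbouring pathways. Of 20 tested further HIF targets, 11 were higher and 0 lower at d36 than at d0, against 16.6% and 7.37% of all entries. Adm, the vessel-active peptide adrenomedullin, went from 0.941 to 20.4 RPKM in the mean (3.02 ± 0.49, limma adjusted p = 0.000474). Its d36 libraries read 25.4, 21.5, 32.4 and 2.09 RPKM, so that replicate 9 lay within the d15 range of 1.36 to 2.27. Wsb1, a ubiquitin ligase component, Plod2, a collagen lysyl hydroxylase, and Cited2, which competes with HIF for its coactivator, were higher by 1.08, 1.49 and 1.01. Replicate 9 was the lowest d36 library in each. In Plod2 it read 3.04 RPKM, within the d22 range of 2.37 to 3.77, and in Wsb1 22.4 RPKM, above all of d0 (at most 18.7). Cited2 reached the filter only with the help of its d36 libraries, so its call is no support for the count. At d15, 1 of the 20 passed, against 0.608% of all entries higher: Bhlhe40, a transcriptional repressor, at 59.9 RPKM against 9.15 at d0 (2.51 ± 0.47, limma adjusted p = 0.0216). At d22, 1 of the 20, Wsb1, was higher (0.60 ± 0.17, limma adjusted p = 0.0285), against 8.09% of all entries.

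Of 8 tested further genes of the HIF system, 4 were higher at d36, against 16.6% of all entries: the coactivators Crebbp and Ep300, the ligase Siah1a and the elongin subunit Tceb1. Crebbp and Ep300 were already higher at d22 (0.79 ± 0.11 and 0.59 ± 0.15, limma adjusted p = 0.000509 and 0.0128). There Tceb2 and Rbx1, partners of Vhl in the ligase, were lower (-0.74 ± 0.11 and -0.43 ± 0.11, limma adjusted p = 0.000634 and 0.0147). At d22 this list thus had 2 of 8 higher and 2 lower, against 8.09% and 7.1% of all entries. In neighbouring pathways the calls at d36, against the same 16.6%, were 1 of 5 tested further glycolysis genes (Eno3), 1 of 7 genes of the pentose phosphate pathway (Rpe) and 4 of 10 genes of mitochondrial pyruvate use (Pdk3, Dlat, Pdp1 and Pdha1), all higher. Pdk3, a relative of Pdk1, stood at 1.75 RPKM against 0.556 (0.80 ± 0.15, limma adjusted p = 0.00127). Outside d36 it stayed below 1 RPKM and so entered the test only through the group where it was high. Its call is no support for the count. At d22, 1 of the 7 genes of the pentose phosphate pathway, Taldo1, was lower (-0.42 ± 0.12, limma adjusted p = 0.0232), against 7.1% of all entries.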

How the data were processed

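RNA of sorted lung endothelial cells was extracted with a PicoPure kit and made into libraries from 10 ng with the SMARTer Ultra Low kit, per the labels. The authors deposited an RPKM value for each of 17715 entries and 16 libraries, and, per the file headers, log2 fold changes and adjusted p-values for d15, d22 and d36. The submitters' processing notes name STAR, DESeq2 and mm10 and give neither their versions nor their use. Annotation, strand setting and handling of reads with several matches are not given in the sources used here. Reads could be recovered for 387 of 4043 low entries (whole within 0.1 read in all 16 libraries), so no count test was run.

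The 14303 entries that reached 1 RPKM in 4 or more libraries were tested on log2(RPKM + 1) with limma 3.58.1 (R 4.3.3), with an intensity trend, 4 groups in 1 fit and no covariate. Calls are two-sided at a Benjamini-Hochberg adjusted p under 0.05 within a contrast. The fit was tested on simulated data. The members and all gene lists were chosen with earlier results of these data known. Every member is named. Promoter windows came from RefSeq (GRCm38.p6), and similar genes from a blastn 2.17.0 search of GENCODE transcripts. Alternatives were the pseudocount, the filter, the scaling, the treatment of spread, single libraries left out, a replicate block, and a length and GC correction (lengths were found for all 35 members and for 10113 tested entries, 70.7%).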

Additional observations from a re-analysis of the deposited data

Results flagged for a closer look

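In each member and group of 4 libraries, the gap between the lowest or highest library and its neighbour was set against the whole range of the group on the log2(RPKM + 1) scale. Of 139 groups tried, 11 had a library set apart by Dixon's test at its 95% limit for 4 values, where chance gives about 1 in 20. Of the 11, 6 were d36 replicate 9 as the lowest library: Hk2 at 0.565 RPKM, Pfkl at 17.2, Tpi1 at 37.4, Bnip3 at 18.4, Ndrg1 at 6.77 and Egln3 at 0.108. The same library had the lowest sum of tumour line markers at d36 (12 RPKM), and the part of those markers in these values was not tested. Pfkfb4 was high in d36 replicate 1, at 1.31 RPKM. P4ha1 was high in d22 replicate 6, at 17.2 RPKM. The others lay near 0: Hk2 in d0 replicate 3 (0.108 RPKM), Car9 in d0 replicate 2 (0.0112 RPKM) and Egln3 in d15 replicate 5 (0.0161 RPKM).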

How the results depend on the processing

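No named gene's called difference and no count of members reversed, but the balance of members higher and lower at d22 against d0, 2 and 1, became 3 and 5 with only the 2 groups compared. The 16 members higher and 0 lower at d36 than at d0 became 11 to 20 and 0 under the alternatives. The median member difference at d36 ran from 0.42 to 0.95. Members higher at d15 than at d0, 0 here, were 1 with a pseudocount of 0.1, a mean of at least 5 RPKM, median-ratio scaling, quantile normalization, the length and GC trend removed or the same genes with that trend kept (added after seeing the data), 3 with only the 2 groups compared, and 4 with array weights. Members higher at d22 than at d0, 2 here, were 0 with a mean of at least 5 RPKM and 1 with the length and GC trend removed. Members lower there, 1 here, were 2 with quantile normalization or array weights, 5 with only the 2 groups compared and 0 with the length and GC trend removed. From d15 to d22, 1 higher became 0 with a pseudocount of 0.1, no filter, a mean of at least 5 RPKM, either scaling or the length and GC correction. There 1 lower became 2 with median-ratio scaling or the length and GC correction and 5 with array weights. Members higher at d36 than at d15, 13 here, were 8 with a mean of at least 5 RPKM and 1 with only the 2 groups compared. From d22 to d36, 15 became 4 in the latter fit. The causes were not tested, except that fewer members (21) were tested at a mean of at least 5 RPKM. For most of these fits and those below, the share of all entries called is not given, so the counts describe stability only.

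With single libraries left out, the numbers of members higher were 0 to 0 (d15 against d0), 1 to 2 (d22 against d0), 15 to 20 (d36 against d0), 0 to 1 (d22 against d15), 10 to 19 (d36 against d22) and 8 to 17 (d36 against d15). The numbers lower were 0 to 2 for d22 against d0 and 0 to 1 for d22 against d15, and 0 otherwise. The 8 came without d15 replicate 6. At d22, 1 was higher without d0 replicate 1 or 3 or d22 replicate 1 or 6, 0 were lower without d0 replicate 1 or d22 replicate 6, and 2 were lower without d0 replicate 2.

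Equal replicate numbers gave no pairing: over 9 pairs of libraries with the same number the deviations correlated at -0.11 to 0.22, and 2 pairs were over 0.1. With the number as a replicate block, 2 members were higher at d15 than at d0, 1 higher and 2 lower at d22 than at d0, 2 lower at d22 than at d15, 8 higher at d36 than at d15, 10 higher at d36 than at d22 and 14 higher at d36 than at d0. Calls lost under it were Slc16a3, Ankrd37 and Mxi1 at d36 against d0 (limma adjusted p = 0.0556, 0.0506 and 0.38) and Arnt at d22 against d0 (limma adjusted p = 0.108). Depth limits Car9 and Egln3 outside d36, and Hk2 in d0 replicates 1, 2 and 4, where values stand on few reads.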
